A study of Mus musculus with 4 samples.

Results

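Hepatokines are proteins that hepatocytes secrete into the blood and that act on other organs, and the 10 genes described here encode members of this group: Ahsg, Fetub, Lect2, Sepp1, Inhbe, Enho, Gdf15, Fst, Angptl6 and Hgfac. They were chosen by name, as the rows of the deposited table that carry one of these symbols, and the rows of a gene were summed. All 10 were found, among 23920 genes, in 19 of 33170 transcript rows. Liver RNA came from male C57BL/6 mice aged 12 weeks that were refed for 12 h after a fast of 24 h. There were 2 wild-type libraries, labelled SREBP1c WT (WT below), and 2 libraries labelled SREBP1c KO (KO below), and both groups shared strain, sex, age, tissue and feeding. The labels do not say how the knockout was made or whether each library came from another animal, so p-values reflect no more than the variation among these 4 samples, possibly a technical one. Values are FPKM, the number of sequenced fragments scaled by transcript length and library size.

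As background, refeeding raises insulin, and SREBP1c, the insulin-responsive product of Srebf1, switches on fatty acid synthesis in the liver. Hepatokines link the nutritional state of the liver to insulin sensitivity, appetite and energy use elsewhere. The 10 genes fall into proteins of the cystatin superfamily (Ahsg and Fetub, encoding fetuin-A and fetuin-B, which circulate at high levels), a selenium carrier (Sepp1, selenoprotein P), members of the TGF-beta family and an inhibitor of activins (Inhbe, Gdf15 and Fst), small or angiopoietin-like metabolic factors (Lect2, Enho and Angptl6) and a protease that activates hepatocyte growth factor (Hgfac).

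The targeted gene was checked first: Srebf1 stood at 63.7 and 58.2 FPKM in the WT pair against 8.63 and 6.97 in the KO pair (limma adjusted p = 0.00172 with summed rows). It did not pass when all genes were tested, without WT replicate 1 or without WT replicate 2 (adjusted p = 0.0883, 0.136 and 0.0923), at log2 differences between −2.96 and −2.68 over all alternatives. Low values of genes with 1 row lay on steps that imply 20.5 to 22.45 M (mega) fragments per library, with 1 library of either depth in each group, and 56.1% to 58.1% of these values lay within 0.1 of a whole fragment. All genes were tested with limma on log2(FPKM + 1), and 9820 genes with a mean of at least 1 FPKM entered. A log2 difference below is always KO minus WT on that scale. It shrinks the change of genes with low values. At a Benjamini-Hochberg adjusted p of 0.05, 7 of the 9820 genes passed (0.0713%), 1 higher (0.0102%) and 6 lower in KO (0.0611%), and Srebf1 was the fourth by p. The count was 1 without WT replicate 1, 4 without WT replicate 2, 306 without KO replicate 1 and 117 without KO replicate 2. Of 10 hepatocyte markers 9 were measured, including Ttr at 2488 to 3159 FPKM and Apoa2 at 12827 to 14764 FPKM, while Alb was listed at 0 in every library, so a 0 in this table does not show that a gene was silent.

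No hepatokine passed the limma threshold, and 9 of the 10 were tested, Fst having stayed below the minimum. The 9 nevertheless lay mostly on the higher side in KO: 8 had a positive difference (54.6% of all genes did), with a median of 0.18 against 0.02 over all genes tested (0.37 for the hepatokines without KO replicate 2), and for 6 both KO values exceeded both WT values. Among all genes tested, both KO values exceeded both WT values for 22.4% and were under both WT values for 16.4%, and the latter was seen for no hepatokine. An unadjusted limma p under 0.05 was reached by 4 of the 9 (Gdf15, Inhbe, Enho and Lect2, all higher in KO), against 4.5% of all genes on that side and 7.75% in either direction. Members were listed by name, with earlier results of these data known, and are not replicates of a condition. The shares beside all genes are therefore a description and not an independent test. Of the other lists given below, secreted liver factors had 20 positive and 7 negative differences, and hepatocyte markers 3 and 6. An exact permutation test of 2 against 2 values has a smallest two-sided p of 0.333 and was not run.

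**Figure D1:**
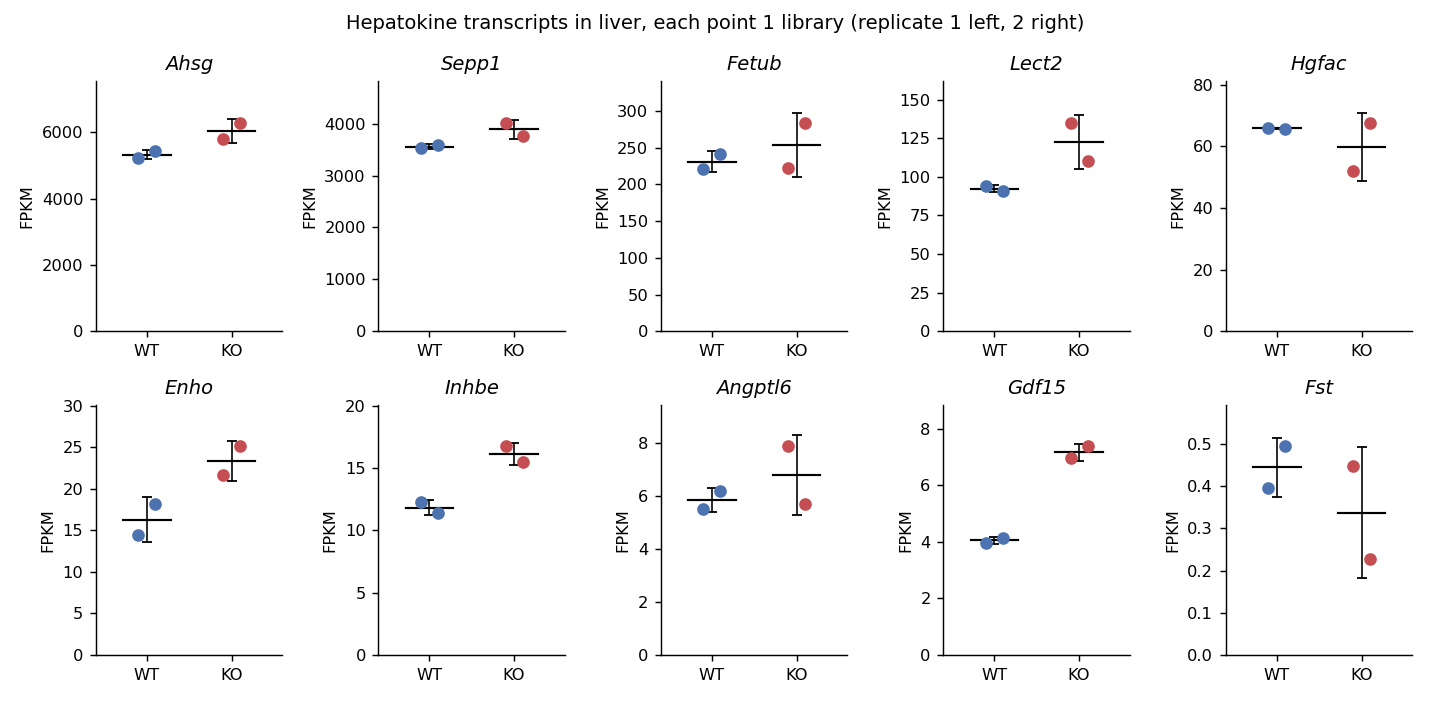
FPKM (y axis, from 0, rows summed per gene) of the 10 hepatokine genes in 2 WT (blue) and 2 KO (red) liver libraries, ordered by mean level; points are libraries, the long line is the group mean and the bar the SD (n = 2). Both KO points lie above both WT points for Ahsg, Sepp1, Lect2, Enho, Inhbe and Gdf15, most clearly for Gdf15 (6.95 and 7.38 against 3.96 and 4.15 FPKM).

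The largest difference was that of Gdf15, a TGF-beta family hormone that cells release under stress and that lowers appetite through a brainstem receptor. Gdf15 (chromosome 8, 70629393 to 70632470, mm10) was present at 3.96 and 4.15 FPKM in the WT pair against 6.95 and 7.38 in the KO pair. The groups did not overlap, and the libraries of each group lay close together. The means were 4.06 ± 0.13 and 7.16 ± 0.301 FPKM (SD, n = 2 each), a 1.77-fold higher mean in KO. The log2 difference was 0.69 (SE 0.10, 95% interval 0.44 to 0.95, limma adjusted p = 0.165), and the gene ranked 33 of 9820 by p. Its row corresponds to only about 131 to 241 fragments per library, at the depth implied above. In the alternatives that kept all libraries, the limma adjusted p ran from 0.125 (replicate number as a block) to 0.399 (single transcript rows). Without KO replicate 1, which leaves a single KO library, the log2 difference was 0.73. Over all alternatives the log2 difference ran from 0.65 to 0.81. Its receptor gene Gfral was listed at 0 in all libraries and the coreceptor gene Ret at no more than 0.02 FPKM.

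Inhbe encodes the activin E subunit, a hepatocyte product that acts on fat tissue. Inhbe (chromosome 10, 127349402 to 127351848) had 12.2 and 11.4 FPKM in the WT pair against 16.7 and 15.5 in the KO pair, a 1.36-fold higher mean (11.8 ± 0.588 against 16.1 ± 0.875 FPKM, SD, n = 2 each). Both KO libraries were above both WT libraries, by more than the spread within either group, although the test over all genes was not passed (log2 difference 0.42, SE 0.11, limma adjusted p = 0.414). Inhbc, the gene of the activin C subunit, lies 4473 bases away by the RefSeq spans, on the same strand (127356322 to 127370548), and is also made mainly in the liver. It had 32.5 and 30.4 FPKM in the WT pair against 44.4 and 40.9 in the KO pair, again 1.36 times the WT mean (log2 difference 0.43, SE 0.11, limma adjusted p = 0.406). The 2 genes kept their proportion in every library: the ratio of Inhbc to Inhbe was 2.65 and 2.67 for the WT libraries and 2.65 and 2.64 for the KO libraries. GENCODE M21 places an antisense transcript, Gm47200, across both genes, and the use of strand in the counting is not given in the sources used here, so its reads cannot be told apart from theirs. A gene on the opposite strand overlaps the annotated span of 7 of the 10 hepatokines, all but Gdf15, Fetub and Hgfac.

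**Figure D2:**
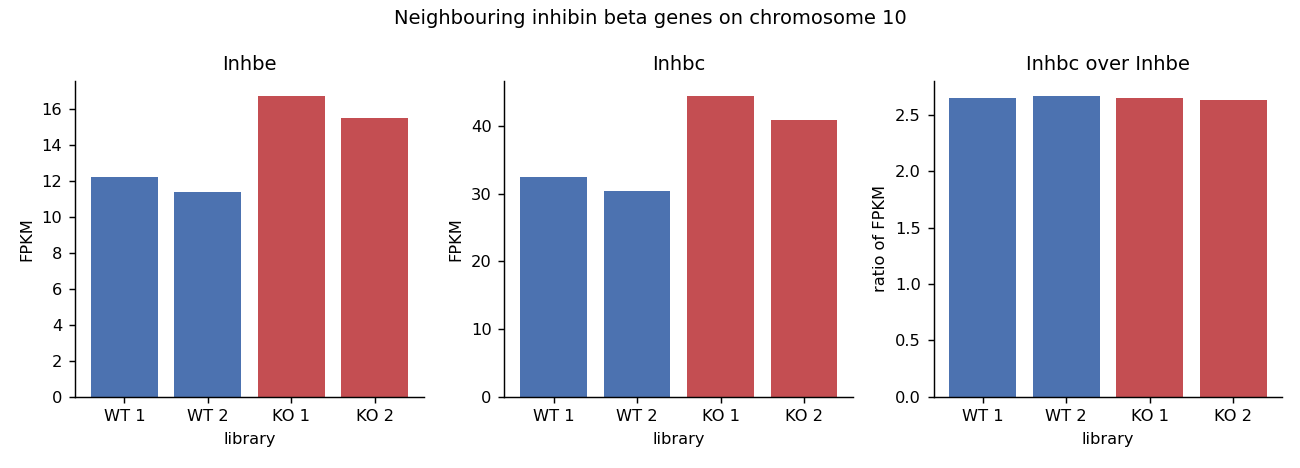
Bars give FPKM of Inhbe and of its neighbour Inhbc (y axes from 0) and the ratio of Inhbc to Inhbe in each of the 4 libraries (WT blue, KO red). Both genes are higher in both KO libraries, while the ratio stays between 2.64 and 2.67.

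Since Inhbe and Inhbc kept a fixed proportion and Gdf15 differed most, their upstream sequences are shown, as the 250 bases before each RefSeq start (GRCm38.p6, the mm10 assembly), 5′ to 3′ on the gene's strand, which is the minus strand for all of them. Gdf15 has 2 annotated starts and 2 windows. The window of its outer start, from 70632457, reaches slightly into the gene span given above, which ends at 70632470. Capitals mark every match, on either strand, to 6 motifs: TGATGNAA (C/EBP-ATF response element, bound by ATF4 and CHOP), TTGCNNAA (C/EBP), TCACNCCAC (a sterol regulatory element form), CACGTG (palindromic E-box), CCAAT and TATAAA.
Inhbe, chr10:127351849-127352098: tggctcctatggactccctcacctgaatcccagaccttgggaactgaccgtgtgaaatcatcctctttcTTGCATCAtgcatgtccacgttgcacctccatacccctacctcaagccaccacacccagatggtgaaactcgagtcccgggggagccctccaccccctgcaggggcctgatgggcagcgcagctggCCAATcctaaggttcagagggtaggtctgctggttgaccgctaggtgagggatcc
Inhbc, chr10:127370549-127370798: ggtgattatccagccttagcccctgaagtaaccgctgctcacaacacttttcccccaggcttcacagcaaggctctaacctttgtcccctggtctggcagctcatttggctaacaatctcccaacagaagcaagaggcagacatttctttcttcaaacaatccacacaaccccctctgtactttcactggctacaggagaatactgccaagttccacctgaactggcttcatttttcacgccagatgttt
Gdf15 outer start, chr8:70632457-70632706: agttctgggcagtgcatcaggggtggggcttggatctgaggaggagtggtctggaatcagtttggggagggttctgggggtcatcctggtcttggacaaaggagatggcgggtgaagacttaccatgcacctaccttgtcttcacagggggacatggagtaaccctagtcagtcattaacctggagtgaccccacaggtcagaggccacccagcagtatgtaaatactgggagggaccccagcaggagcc
Gdf15 inner start, chr8:70632096-70632345: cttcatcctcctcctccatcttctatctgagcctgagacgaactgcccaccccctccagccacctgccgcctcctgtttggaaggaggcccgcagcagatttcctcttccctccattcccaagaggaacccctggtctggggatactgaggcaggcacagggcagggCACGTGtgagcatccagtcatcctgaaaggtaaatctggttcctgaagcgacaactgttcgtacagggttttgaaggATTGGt
GENCODE M21 gives Inhbe a longer span, 127348857 to 127354411, and the Inhbe window lies inside it. The Inhbe window held 1 match to the C/EBP-ATF letters, on the opposite strand, 181 to 174 bases before the RefSeq start, and 1 CCAAT 55 to 51 bases before it. Of 32851 windows of this length over all genes, 3.45% held the former and 33.8% the latter. The Inhbc window and the outer Gdf15 window held no match to any of the 6. The inner Gdf15 window held CACGTG 83 to 78 bases before its start (6.02% of all windows) and a reversed CCAAT at its end. TCACNCCAC, found in 1.05% of all windows, was in none of the 12 windows of the 8 hepatokine genes with a promoter window (Enho and Fst had none). A match describes letters only, and the absence of one says nothing on binding.

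Fst encodes follistatin, which binds and blocks activins. Fst was near the floor of the table, with 0.396 and 0.495 FPKM in the WT pair against 0.448 and 0.227 in the KO pair over 3 transcript rows. The groups overlapped, and the rows correspond to only about 6.83 to 21.8 fragments, so no difference was detectable at this depth. The shares of the 3 rows varied from library to library without a pattern by group, the row of the FST288 precursor being listed at 0 in WT replicate 1 and at 52.8% of the sum in WT replicate 2. Without the filter on low values its log2 difference was −0.12 (95% interval −0.50 to 0.26, limma adjusted p = 1).

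Of 19 further genes of the activin axis (other subunits, binding proteins, receptors and SMAD transducers), 11 reached the minimum level and none passed the threshold in either direction. Their median log2 difference was 0.03, with 6 positive and 5 negative, and 1 (Inhbc) had an unadjusted p under 0.05. Apart from Inhbc, the smallest p belonged to Smad2, which had 1.71 FPKM in each WT library and 2.28 and 1.95 in KO, and to Tgfbr3, a coreceptor, at 1.31 and 1.03 FPKM in the WT pair against 0.792 and 1.09 in the KO pair. Acvr1b, a type I activin receptor, had 2.42 and 2.51 FPKM in the WT pair against 2.16 and 2.21 in the KO pair (limma adjusted p = 0.82). Inhba, the activin A subunit gene, was higher in replicate 1 of each genotype (3.85 and 2.06 FPKM in the WT pair against 3.82 and 2.33 in the KO pair). Acvr1c, the activin receptor gene of fat cells, was listed at 0 in replicate 2 of each genotype and under 0.01 FPKM in replicate 1.

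Enho encodes adropin, a small secreted peptide linked to glucose and lipid handling. Enho (chromosome 4, 41638144 to 41640302) had 14.4 and 18.2 FPKM in the WT pair against 21.7 and 25.1 in the KO pair. The groups did not overlap, but the WT libraries were 1.26 times apart, and the mean was 1.44-fold higher in KO (log2 difference 0.50, SE 0.15, limma adjusted p = 0.498). The difference ran from 0.34 without WT replicate 1 to 0.66 without WT replicate 2. Gpr19, proposed as a receptor of adropin, stood at 1.72 and 1.74 FPKM in the WT pair against 2.02 and 2.17 in the KO pair over 9 rows (limma adjusted p = 0.733).

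Lect2, a hepatocyte chemokine-like protein that binds the MET receptor and is linked to muscle insulin resistance, lies on chromosome 13 (56529734 to 56548559). It had 93.9 and 90.8 FPKM in the WT pair against 135 and 110.1 in the KO pair, a 1.33-fold higher mean (92.3 ± 2.25 against 123 ± 17.6 FPKM, SD, n = 2 each). WT libraries were nearly equal and KO replicate 1 was the highest, so most of the uncertainty lay in the KO group (log2 difference 0.40, SE 0.14, limma adjusted p = 0.57). Leaving out KO replicate 1 gave 0.25 and leaving out KO replicate 2 gave 0.54. Its receptor genes Met (8.96 and 10.3 FPKM in the WT pair against 7.86 and 11.6 in the KO pair) and Tie1 (1.87 and 1.72 FPKM in the WT pair against 2.30 and 2.58 in the KO pair) did not pass either.

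The 2 most abundant hepatokines, Ahsg and Sepp1, were slightly higher in both KO libraries, with limma intervals that include 0. Ahsg (chromosome 16, 22892015 to 22899451) encodes fetuin-A, a carrier of calcium phosphate and an inhibitor of the insulin receptor. It stood at 5229 and 5436 FPKM in the WT pair against 5790 and 6295 in the KO pair, the twelfth highest gene of the table by mean level. Both KO libraries were higher, by 13.3% in the mean (log2 difference 0.18, 95% interval −0.28 to 0.64, limma adjusted p = 0.855). Row NM_013465 held 96.5% to 96.9% of the sum in each library, so the result did not turn on how 4 rows were shared. Sepp1 (chromosome 15, 3270767 to 3280510), which carries selenium from the liver to other organs, had 3525 and 3596 FPKM in the WT pair against 4020 and 3762 in the KO pair. Its mean was 9.28% higher in KO (log2 difference 0.13, 95% interval −0.30 to 0.55, limma adjusted p = 0.892), with over 99% of the sum in row NM_009155. Summed over all 10 hepatokines, the level was 9171 and 9470 FPKM in the WT pair against 10273 and 10573 in the KO pair, nearly all of it from Ahsg and Sepp1 (8754 and 9032 FPKM in the WT pair against 9810 and 10057 in the KO pair).

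Fetub, Hgfac and Angptl6 overlapped between the groups, and the 2 KO libraries disagreed on each. Fetub, the fetuin-B gene 18.9 kb from Ahsg, had 221 and 241 FPKM in the WT pair against 223 and 284 in the KO pair (log2 difference 0.12, limma adjusted p = 0.88). KO replicate 1 lay within the WT range and KO replicate 2 above it, and the difference was −0.051 without KO replicate 2. Further along chromosome 16, Hrg and Kng1, which encode histidine-rich glycoprotein and kininogen of the same superfamily, were lowest in KO replicate 1 and highest in KO replicate 2: Hrg had 654 and 693 FPKM in the WT pair against 597 and 754 in the KO pair, and Kng1 had 675 and 694 FPKM in the WT pair against 596 and 839 in the KO pair. Across the 6 listed cystatin superfamily genes besides the fetuins, 5 were tested and none passed, or had an unadjusted p under 0.05 (median 0.08). Of those, Cst3, cystatin C, had 141 and 139.5 FPKM in the WT pair against 154 and 163 in the KO pair, Kng2 115 and 122 FPKM in the WT pair against 114 and 158 in the KO pair, and Cstb 61.0 and 62.8 FPKM in the WT pair against 63.6 and 67.6 in the KO pair.

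Hgfac, a secreted serine protease that cleaves inactive hepatocyte growth factor, was the only tested hepatokine with a negative difference. It had 65.9 and 65.7 FPKM in the WT pair against 51.9 and 67.7 in the KO pair, so KO replicate 1 alone was lower (log2 difference −0.15, 95% interval −0.51 to 0.21, limma adjusted p = 0.848), and without that library the difference was 0.039. Of 15 other genes of growth factor activation and MET signalling, 8 were tested, none passed and 1 had an unadjusted p under 0.05 (median −0.0020, 4 positive and 4 negative). That one, Spint2, an inhibitor of such proteases, had 57.4 and 52.4 FPKM in the WT pair against 66.9 and 70.0 in the KO pair (log2 difference 0.31, limma adjusted p = 0.571). The contact-phase protease genes lay on both sides: F11 had 46.0 and 48.9 FPKM in the WT pair against 40.5 and 42.1 in the KO pair, Klkb1 55.7 and 59.0 FPKM in the WT pair against 45.9 and 52.8 in the KO pair, and F12 203 and 220 FPKM in the WT pair against 226 and 235 in the KO pair. Hgf itself stayed below the minimum, with 0.50 to 0.79 FPKM.

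Angptl6, an angiopoietin-like protein tied to energy expenditure, had 5.52 and 6.18 FPKM in the WT pair against 7.87 and 5.71 in the KO pair (log2 difference 0.17, limma adjusted p = 0.834), or −0.028 without KO replicate 1. Of its relatives, none of the following passed. Angptl4, a lipoprotein lipase inhibitor of the fasted state, had 9.47 and 18.1 FPKM in the WT pair against 17.5 and 46.5 in the KO pair. Angptl8, listed in the table as Gm6484 and induced by feeding, spread over 80.6 and 34.2 FPKM in the WT pair against 57.8 and 16.3 in the KO pair, with replicate 2 the lower in each genotype. Angptl2 lay between 1.65 and 2.31 FPKM in all libraries.

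**Figure D3:**
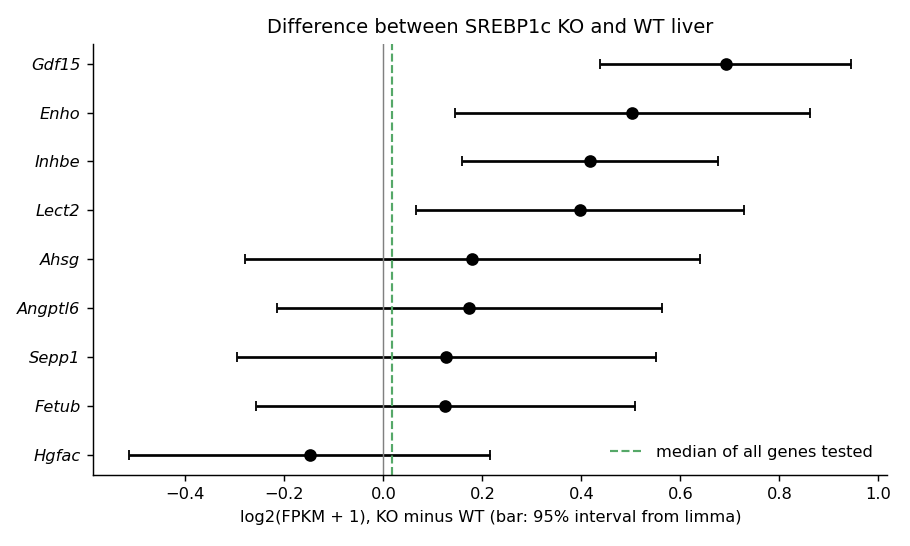
Log2 difference in FPKM + 1 between KO and WT (x axis, KO minus WT; bar: 95% interval from limma) for the 9 tested hepatokine genes; the dashed line is the median of all 9820 genes tested, 0.02. The intervals of Gdf15, Enho, Inhbe and Lect2 lie above 0 before adjustment for the number of genes tested, and those of the other 5 include it.

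On the per-length scale of FPKM, the level order over all libraries was Ahsg, Sepp1, Fetub, Lect2, Hgfac, Enho, Inhbe, Angptl6, Gdf15 and Fst. Across libraries the ranges of Enho and Inhbe overlapped, as did those of Angptl6 and Gdf15, while those of all other neighbours did not. Within each library Enho stayed above Inhbe. In WT, Gdf15 lay below Angptl6 in both libraries. In KO its 2 values lay between those of Angptl6.

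For selenoprotein synthesis and other selenoproteins, the pathway that Sepp1 depends on for its selenocysteines, 21 of 24 listed genes were tested and none passed; the median log2 difference was 0.06, with 12 positive and 9 negative and an unadjusted p under 0.05 for 1 on either side. Gpx3, the plasma glutathione peroxidase, had the smallest p of the list: 3.76 and 4.25 FPKM in the WT pair against 2.36 and 2.55 in the KO pair (log2 difference −0.53, SE 0.11, limma adjusted p = 0.314). Sepsecs, which completes the selenocysteine tRNA, had 11.4 and 9.93 FPKM in the WT pair against 9.12 and 8.25 in the KO pair. Sepw1 and Selm, small selenoprotein genes, lay the other way, with Sepw1 at 49.1 and 57.5 FPKM in the WT pair against 60.4 and 68.7 in the KO pair, and Selm at 0.880 and 0.966 FPKM in the WT pair against 1.47 and 1.29 in the KO pair.

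A wider list of 32 secreted liver factors, 27 of them tested, had none past the threshold, a median of 0.15 and 20 positive against 7 negative differences, 2 and 1 of them at an unadjusted p under 0.05. The groups did not overlap for 6 higher and 3 lower genes of the 27, against 22.4% and 16.4% of all genes tested. Of all genes tested, 54.6% had a positive difference and 7.75% an unadjusted limma p under 0.05. Sparc, a matrix protein, had 18.0 and 17.0 FPKM in the WT pair against 25.5 and 28.7 in the KO pair (log2 difference 0.60, limma adjusted p = 0.246). Smoc1, a glucose-lowering hepatokine, had 24.0 and 22.8 FPKM in the WT pair against 17.0 and 20.1 in the KO pair (−0.32, limma adjusted p = 0.611). Cxcl12 had 51.8 and 58.5 FPKM in the WT pair against 64.4 and 90.6 in the KO pair, and Serpinb1a 0.941 and 0.902 FPKM in the WT pair against 1.25 and 1.35 in the KO pair.
Of 13 listed receptor genes of hepatokines 6 were tested, as were 9820 of all 23920 genes. None of the 6 passed and 1 (Tie1) had an unadjusted limma p under 0.05. Lrp1 had the highest level, with 35.9 and 40.0 FPKM in the WT pair against 33.2 and 52.9 in the KO pair. Insr had 8.78 and 9.64 FPKM in the WT pair against 7.35 and 9.76 in the KO pair, and Acvr2a 3.45 and 2.78 FPKM in the WT pair against 2.89 and 2.86 in the KO pair.

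As background, Gdf15 and Inhbe are known targets of the ATF4 and CHOP stress response. Of 18 listed genes of that response 12 were tested, none passed and the median log2 difference was 0.28. The difference was positive for 9 (54.6% of all genes tested), 2 of them at an unadjusted limma p under 0.05. It was negative for 3, Asns, Atf3 and Cth (−0.40, −0.19 and −0.10). Atf5, an ATF4-family factor, came nearest, at 290 and 263 FPKM in the WT pair against 432 and 466 in the KO pair (log2 difference 0.70, SE 0.13, limma adjusted p = 0.246). Ddit3, which encodes CHOP, had 9.27 and 6.19 FPKM in the WT pair against 10.1 and 12.2 in the KO pair, and Sesn2 1.175 and 1.468 FPKM in the WT pair against 1.69 and 2.07 in the KO pair. Both KO libraries exceeded both WT libraries for these 3, which were named for their small p. The same held for 4 of the 12 tested in all, against 22.4% of all genes tested. Fgf21, a hepatokine that belongs to the same list, overlapped between the groups: 1.06 and 0.291 FPKM in the WT pair against 0.956 and 5.71 in the KO pair. Against the WT mean, the median of this list lay at 0.02 (KO replicate 1) and 0.59 (KO replicate 2), and that of the 9 tested hepatokines at 0.37 and 0.25.

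**Figure D4:**
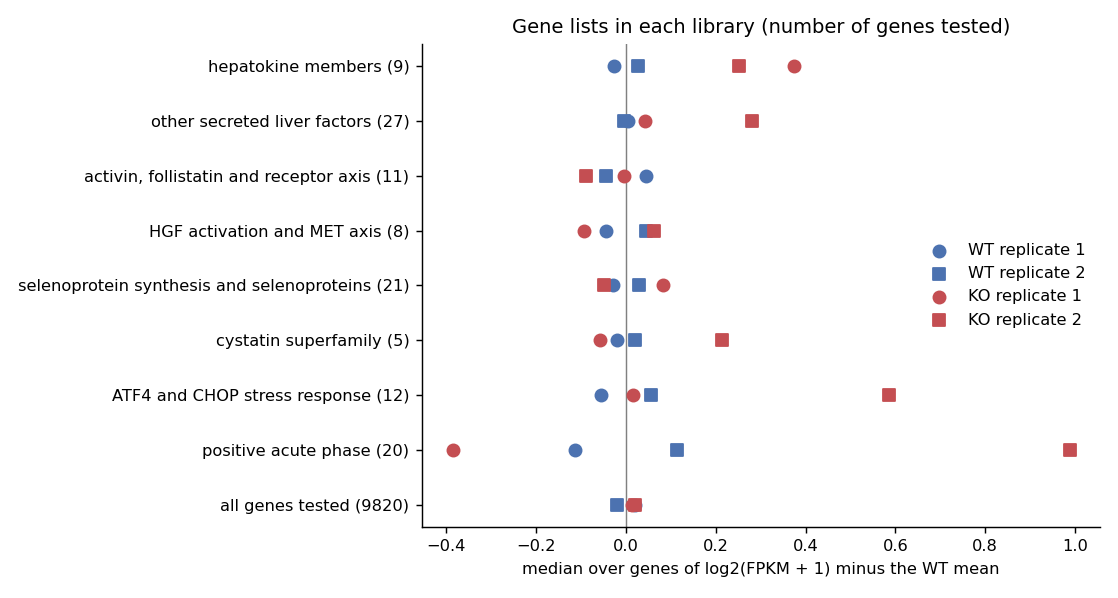
Median over genes of log2(FPKM + 1) minus the WT mean (x axis) for gene lists, one point per library (WT blue, KO red, circle replicate 1, square replicate 2), with the number of genes tested in brackets. The hepatokines lie above 0 in both KO libraries (0.37 and 0.25), and the acute phase median lies at −0.39 in KO replicate 1 and 0.99 in KO replicate 2.

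KO replicate 2 stood apart in acute phase genes. All 20 listed were tested and none passed, while 3 had an unadjusted limma p under 0.05 (7.75% of all genes tested did). The median of the 20 lay at −0.39 (KO replicate 1) and 0.99 (KO replicate 2) against the WT mean. Both KO values exceeded both WT values for 5 of the 20 (22.4% of all genes tested), and the groups overlapped for 15. The 4 genes with the smallest p were higher in both KO libraries, unlike the list median in KO replicate 1. Cebpd had 1.59 and 2.18 FPKM in the WT pair against 3.06 and 3.76 in the KO pair, and Cebpb 45.9 and 53.5 FPKM in the WT pair against 72.03 and 128 in the KO pair. Mt2 had 3.74 and 3.29 FPKM in the WT pair against 8.67 and 230.3 in the KO pair, and Saa3 3.66 and 3.40 FPKM in the WT pair against 4.01 and 20.5 in the KO pair. Saa1, in contrast, had 65.8 and 87.3 FPKM in the WT pair against 34.7 and 1244 in the KO pair. Kupffer cell markers (8 of 8 tested) summed to 92.3 and 74.0 FPKM in the WT pair against 70.5 and 124 in the KO pair, and leukocyte markers (2 of 6 tested) to 10.9 and 12.9 FPKM in the WT pair against 7.75 and 26.3 in the KO pair. Endothelial markers (7 of 7 tested) summed to 54.8 and 57.2 FPKM in the WT pair against 60.04 and 72.5 in the KO pair. Clec4g alone gave 29.5 and 32.1 FPKM in the WT pair against 35.99 and 41.3 in the KO pair. The endothelial median against the WT mean lay at −0.011 (KO replicate 1) and 0.23 (KO replicate 2). Of the 7 genes, 5 had a positive and 2 a negative difference, and the groups overlapped for 4. Stellate cell markers (7 of 7 tested) summed to 47.7 and 53.0 FPKM in the WT pair against 51.9 and 52.3 in the KO pair. Red blood cell markers (4 of 6 with a row) summed to 533 and 193 FPKM in the WT pair against 173 and 351 in the KO pair. In each library most of these stellate and red blood cell sums came from Dcn and Hba-a1, respectively. Cholangiocyte markers (3 of 6 tested, none listed at 0 throughout) summed to 25.4 and 23.5 FPKM in the WT pair against 50.3 and 41.7 in the KO pair. Most of that sum came from Spp1 (21.3 and 20.2 FPKM in the WT pair against 45.5 and 37.0 in the KO pair). Of the 3 tested, 2 had a positive difference and 1, Sox9, a negative one. Sox9 overlapped between the groups, with 2.20 and 1.44 FPKM in the WT pair against 1.18 and 2.09 in the KO pair. Hepatocyte markers summed to 35454 and 38517 FPKM in the WT pair against 35761 and 35474 in the KO pair, with 3 positive and 6 negative differences. Of the 9 tested, 4 had both KO values under both WT values and 2 above them (16.4% and 22.4% of all genes tested). Cps1 had the largest difference, with 620 and 621 FPKM in the WT pair against 362 and 400 in the KO pair (log2 difference −0.70, limma adjusted p = 0.246). The part of these cell types in the hepatokine values was not tested, and in bulk tissue fewer cells of a type and less RNA per cell cannot be told apart.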

How the data were processed

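Liver RNA of 2 WT and 2 KO samples was compared, with groups and replicate numbers taken from the sample titles. Per the file headers, the authors deposited an FPKM value for each RefSeq transcript in each library. Bowtie, TopHat and mm10 are named in the submitters' processing notes. Which program computed FPKM, from which annotation and whether by strand, is not given in the sources used here.

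Rows were summed per gene number (5009 of 23920 genes have several rows), and genes with a mean of at least 1 FPKM were tested on log2(FPKM + 1) in R 4.3.3 by the moderated statistic of limma 3.58.1, with its trend on intensity, with Benjamini-Hochberg adjustment over 9820 genes and a threshold of 0.05. FPKM is not a count, and too few low values fell on whole fragments for a count test. Fragment numbers behind a gene are estimates from those values and GENCODE M21 transcript lengths. The limma script was tested on simulated data first. Coordinates and promoter windows came from RefSeq tables of GRCm38.p6, matched by gene number for 23847 genes. Plots were drawn with matplotlib 3.10.9 under python 3.11.15, and tables were made with pandas 2.3.3.

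The hepatokines, the gene lists and the tests were chosen with earlier results of these data known, and the motifs after the values. Named genes were all 10 hepatokines, Srebf1, the neighbours Hrg, Kng1 and Inhbc, and up to 4 genes of each list with the smallest p; other genes named from the lists were picked after their values were seen, and 1 gene that this rule names is not reported here. Tried in turn were other pseudocounts (0.1, 0.5), all genes or those above 5 FPKM, scaling by upper quartile or by quantiles, limma without its trend, a replicate block, single transcript rows, a threshold of 0.1 and each library left out.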

Additional observations from a re-analysis of the deposited data

How the results depend on the processing

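The number of genes past the limma threshold was 7. It became 11 with a pseudocount of 0.1, 3 with a minimum of 5 FPKM, 4 with single transcript rows and 0 without a filter, where 23920 genes were tested and 1483 had an unadjusted p under 0.05. With 1 library left out it ran from 1 to 306, and the causes were not tested. None of the 9 tested hepatokines passed 0.05 in any alternative that kept all 4 libraries. The threshold of 0.1 was tried on the main fit only, and none passed it there. Fits with 1 library left out are not counted for the hepatokines, since 1 group then has a single sample. Without KO replicate 1 the log2 difference of Gdf15 was 0.73. The median log2 difference of the hepatokines was 0.18. With 1 library left out it ran from 0.15 without WT replicate 1 to 0.37 without KO replicate 2. It lay between 0.15 and 0.20 with the other pseudocounts, filters, scalings and rows. The sign turned for Angptl6 (−0.028, up to 0.37 with another library left out) and Hgfac (0.039, down to −0.34) without KO replicate 1 and for Fetub (−0.051, up to 0.30) without KO replicate 2, and for no other tested hepatokine in any setting. With the replicate number as a block 19 genes passed and no hepatokine did, while the deviations of WT replicate 1 and KO replicate 1 correlated at 0.17 over genes. There are only 2 such pairs, and the labels do not say that a number marks a shared batch. Each left-out library leaves a group with 1 sample, which limma assumes to vary like the others. Depth limits Fst and, less, Gdf15.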
